A study of Mus musculus with 9 samples.

Results

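The transfer RNAs (tRNAs) Arg-CCG, Arg-CCT, Arg-TCG and Arg-TCT, named by amino acid and anticodon, were followed as fragments in mouse blood serum. A read was taken when every reference it aligned to belonged to the mature form of one of these 4 tRNAs. This gave 1501 of 41240 distinct sequences and 15541 of 555585 tRNA reads, or 2.80% of them. The reads met 16 references, and 28 further sequences with 49 reads, which also met other references, were left out. Arg-CCT gave 8188 reads in 669 sequences, Arg-CCG 2366 in 241, Arg-TCT 931 in 376 and Arg-TCG 199 in 106. A further 3788 reads in 67 sequences fitted Arg-CCG and Arg-CCT equally well and are given as Arg-CCG/Arg-CCT. Of these, 3555 lie at positions 43 to 56, and 91.6% of the 3555 differ from the reference at their last base. The other shared reads, mostly between Arg-CCG and Arg-TCG (62 reads), were too few to test.

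Small RNA of serum was sequenced in 3 groups of 3 mouse libraries, all labelled week 20. The groups were high fat diet with SalB, a high fat diet alone, and a normal diet, where the study's title spells SalB out as salvianolic acid B, a phenolic acid of Salvia miltiorrhiza. The titles of the normal diet libraries carry the name C57. No strain or genotype is stated for the high fat diet groups, so that diet or treatment cannot be told apart from strain in the comparisons with normal diet. The labels give no dose, and nothing in them ties a replicate to its own mouse, so that the p-values cover the spread of these libraries and that spread may be technical. The design names a control, a model and a SalB-intervention group in a series on atherosclerosis, and no lesion measure was used here.

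tRNAs carry amino acids to the ribosome, and these 4 read arginine codons: the anticodons TCT and CCT pair with AGA and AGG, and TCG and CCG with CGA and CGG. A tRNA folds into a D arm, an anticodon arm, a T arm and an acceptor stem that ends in CCA. Nucleases such as angiogenin, a ribonuclease of the secretory family, cut tRNAs in the anticodon loop, and the pieces circulate in serum. In mammals, the cytosine just before the anticodon loop's invariant uridine is known to be methylated to 3-methylcytidine in Arg-CCT, Arg-TCT and several Thr and Ser tRNAs, and a methyl group at this place can stop reverse transcriptase or make it insert a wrong base. The adenosine of the T loop is often methylated as well.

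The tRNAs the reads came from are shown first, rebuilt from the aligned reads and their deposited mismatches, with the anticodon in capitals. Position 1 is the reference's 5′ base, so that the anticodon stands at 34 to 36. The Arg-CCT stretch starts at position 12, the first base any read reached.
Arg-CCT-4-1: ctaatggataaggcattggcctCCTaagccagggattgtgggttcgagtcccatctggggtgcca
Arg-CCG-3-1: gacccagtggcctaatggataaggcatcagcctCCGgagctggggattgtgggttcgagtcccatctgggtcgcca
Arg-TCG-1-1: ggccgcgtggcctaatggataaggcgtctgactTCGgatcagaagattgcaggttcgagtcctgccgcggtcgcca
Arg-TCT-1-1: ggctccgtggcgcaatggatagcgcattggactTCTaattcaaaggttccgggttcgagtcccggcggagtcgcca
Over the 65 positions that Arg-CCT-4-1 covers, Arg-CCG-3-1 differed from it at 8, Arg-TCT-1-1 at 19 and Arg-TCG-1-1 at 21. From position 43 to 56, Arg-CCT and Arg-CCG-3-1 are the same, and 3555 of the 3788 shared reads lie just there. RefSeq (GRCm38.p6, the assembly also called mm10) lists 18 mouse genes for these 4 tRNAs, 3 for CCG and 5 for each of the others. The references in the files are not paired with these loci here, so no coordinates are given.

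The fragments that the comparisons below turn on are shown next, chosen because they are the most abundant or differed between groups. Capitals mark a base that differs from the reference, or, in sequences with no such base, the anticodon bases or the CCA tail. A substitution such as C32T gives first the reference's base, then where it stands, then what was read.
Arg-CCT 27-54 C32T: ttggcTtcctaagccagggattgtgggt
Arg-CCT 35-54: CTaagccagggattgtgggt
Arg-CCT 36-54: Taagccagggattgtgggt
Arg-CCT 16-31: tggataaggcattggc
Arg-CCT 12-29: ctaatggataaggcactg
Arg-CCG/Arg-CCT 43-56: gggattgtgggttc
Arg-CCG/Arg-CCT 43-56 C56T: gggattgtgggttT
Arg-CCG 15-28: atggataaggcatc
Arg-CCT 15-28: atggataaggcatt
Arg-TCT 59-76: gtcccggcggagtcgCCA
Arg-TCG 60-76: tcctgccgcggtcgCCA
The fragment Arg-CCT 12-29 fits only the references 1-1 and 2-1, and 16-31 and 27-54 only 3-1 and 4-1. Arg-CCG 15-28 and Arg-CCT 15-28 differ only in their last base, so a misread last base would move a read between these tRNAs. Of the 15541 reads, the 29 sequences abundant enough to be tested hold 66.1%. None of the Arg-TCT or Arg-TCG sequences reached that abundance, so these tRNAs were tested as sums.

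The libraries held 62258, 156333 and 40134 tRNA reads with SalB, 55465, 28191 and 44415 on high fat diet, and 43007, 31058 and 94724 on normal diet. The arginine reads made up 1.95, 1.04 and 2.79% of these in the SalB libraries, 4.47, 3.4 and 3.78% on high fat diet and 3.59, 2.97 and 4.22% on normal diet. In SalB replicate 2, the precursor of Leu-CAG-3-1 alone took 42% of the reads, which lowers every other share of that library. Mature mitochondrial tRNAs made up 15.4, 8.04 and 16.7% of the reads in the SalB libraries, 2.72, 3.20 and 2.75% on high fat diet and 2.6, 3.06 and 1.78% on normal diet, a difference that moves with the group comparisons and whose part in them was not tested. Levels are given as RPM, reads per 1000000 tRNA reads after scaling by trimmed means, whose factors ran from 0.408 in SalB replicate 2 to 1.24. The files hold only tRNA reads, so a marker of serum or of its cell sources could not be checked. In such bulk samples, fewer cells that release a fragment and less of it per cell cannot be told apart.

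Fragments of Arg-CCT came from the middle of the tRNA. None of 8188 reads started at positions 1 to 11, which allows a share of up to 0.0366% (3 reads of the total, for counting error only). Starts at positions 33 to 36, at the anticodon, made up 54.6% of the reads, and ends at positions 54 to 56, in the T loop, 80.3%. The most abundant sequence, Arg-CCT 35-54, had 1843 reads. In Arg-CCG, ends at 54 to 56 made up 72.1% of the reads, starts at 38 to 42 made up 71.6% and starts at 33 to 36 made up 1.78%. Most Arg-CCG reads were at or near the shortest length in the files, with 69.1% at 14 bases and 15.6% at 15. In Arg-CCT these lengths held 14.5 and 6.44%. Whether such short reads come from these tRNAs was not tested. In Arg-TCT, starts were spread over the D arm (12 to 16, 25.3%), the bases after the anticodon (38 to 42, 26.2%) and the T loop (59 to 60, 25.1%). Of the few Arg-TCG reads, 35.7% started at 59 to 60.

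Set against all other nuclear tRNAs in the same libraries, the Arg-CCT and Arg-CCG reads were nearly all internal. Internal here means reaching neither the first nor the last base of the reference, so reads that stop just short of the end are included. In Arg-TCT, 110, 46, 21 and 65 reads ended at positions 72, 73, 74 and 75 and count as internal. Internal reads averaged 99.4 ± 0.440% of Arg-CCT, 98.2 ± 1.63% of Arg-CCG and 69.4 ± 8.01% of Arg-TCT, against 44.9 ± 7.88% of the other nuclear tRNAs (SD, n = 9 libraries). Each of the 3 was higher in 9 of 9 libraries (exact sign-flip permutation test, two-sided, p = 0.00391, the smallest that 9 libraries allow, adjusted p = 0.00639 over 18 differences). Fragments starting at the first base averaged 0% of Arg-CCT, 0.245% of Arg-CCG and 0.996% of Arg-TCT, against 20.1% of the others, lower in 9 of 9 libraries each at the same exact p. Fragments ending with the full CCA tail averaged 0.628% of Arg-CCT and 1.52% of Arg-CCG, against 35%, again lower in 9 of 9 with that p. In Arg-TCT the CCA share was 29.6 ± 9.49%, lower in 8 of 9 libraries (exact adjusted p = 0.0301). That call was lost without SalB replicates 1 or 2, high fat diet replicates 1 or 3, or normal diet replicates 1 or 2. The exact adjusted p then ran from 0.0502 to 0.0603. It was also lost with no mismatch allowed (difference -3.24%, exact adjusted p = 0.346). With ends within the last 3 bases counted as CCA ends, the difference was -3.89% (0.158). Reads of 28 bases or more made up 8.78% of Arg-CCT and 1.32% of Arg-CCG, against 18.5% of the others, lower in 9 of 9 libraries each at the smallest p. For Arg-TCT they were 27.4 ± 10.6% and higher in 7 of 9 libraries, which did not pass (exact adjusted p = 0.0797). Reads with a mismatch before the last base averaged 10.7% of Arg-CCG, against 17.3% of the others, lower in 8 of 9 libraries (exact adjusted p = 0.0117). That call was lost with reads of 16 to 40 bases (0.0747). The Arg-CCT and Arg-TCT values, 21.3 and 18.9%, did not pass (exact adjusted p = 0.101 and 0.356). With reads of 16 to 40 bases, Arg-CCT passed as higher (0.0325).

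**Figure D1:**
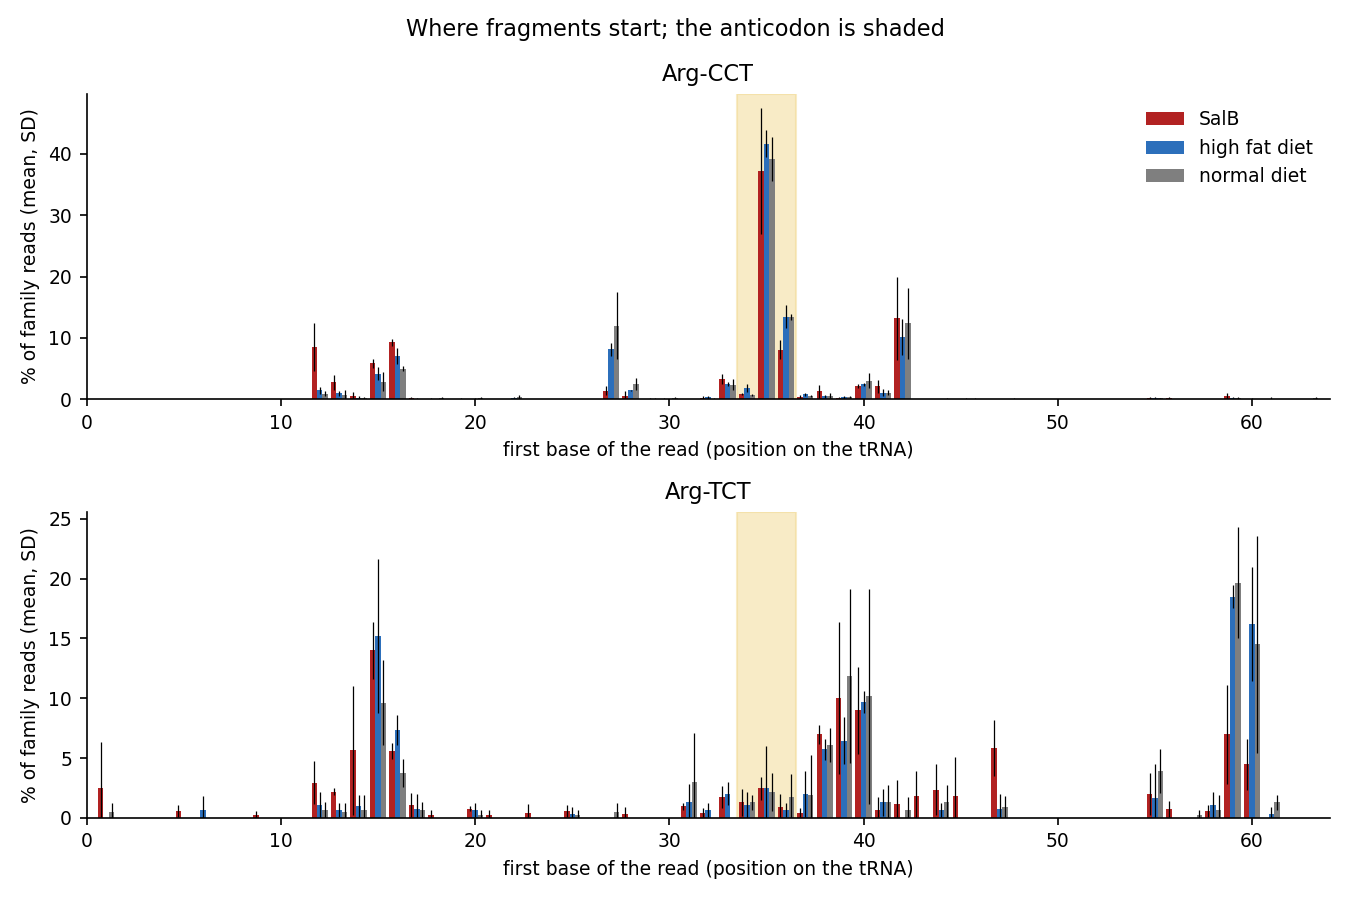
First base of the reads of Arg-CCT (top) and Arg-TCT (bottom) along the tRNA, as the percentage of the family's reads, with bars for the mean of 3 libraries and lines for the SD, in SalB, high fat diet and normal diet. In Arg-CCT, starts at 12 to 16 are tallest with SalB (mean 27%) and starts at 27 and 28 lowest (mean 1.92%). In Arg-TCT, starts at 59 and 60 average 11.5% with SalB, 34.7% on high fat diet and 34.2% on normal diet.

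Arg-CCT was read with a substitution at 1 base nearly every time. At position 32, the cytosine known to carry 3-methylcytidine, 825 of the 863 reads that hold it before their last base had another base, which is 95.6% (exact 95% interval 94.0 to 96.9%, for counting error only). A thymine was read in 80.8%, an adenine in 9.85% and a guanine in 4.98%. Reads that fit only Arg-CCT-3-1 and 4-1 had 652 substituted of 672, those that fit only 1-1 and 2-1 had 33 of 37, and those that fit all 4 had 140 of 154. In the other Arg tRNAs the substituted reads were 0 of 24 covering reads in Arg-CCG (a limit of 12.5% at 3 reads), 0 of 46 in Arg-TCG (6.52%), 0 of 102 in Arg-ACG (2.94%) and 2 of 56 in Arg-TCT, although Arg-TCT is also a known carrier of the methyl group. Among known Thr and Ser carriers, Thr-CGT had 5 of 7, Thr-TGT 4 of 18 and Ser-GCT 1 of 33, while Thr-AGT and Ser-CGA had no covering read and Ser-AGA and Ser-TGA had 1 each, unsubstituted. A read can hold only 1 mismatch in these files, so reads with another mismatch beside the one at 32 are not seen.

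Few Arg-CCT reads crossed position 32 at all. Only 10.5% held it before their last base, 14.8% ended before it and 74.5% started after it. Among the 825 substituted reads, 81.5% started at position 27 or 28 and 89.5% ended at 54 to 56. In the T loop, position 58 was held by 81 Arg-CCT reads, of which 19 (23.5%) were substituted. Pooled by group, this was 20.8% of 48 reads with SalB, 6.25% of 16 on high fat diet and 47.1% of 17 on normal diet. Of the 307 Arg-TCT reads that held position 58, 10 (3.26%) were substituted. Arg-TCT had a further substituted place at position 39, in 27 of 236 reads (11.4%).

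**Figure D2:**
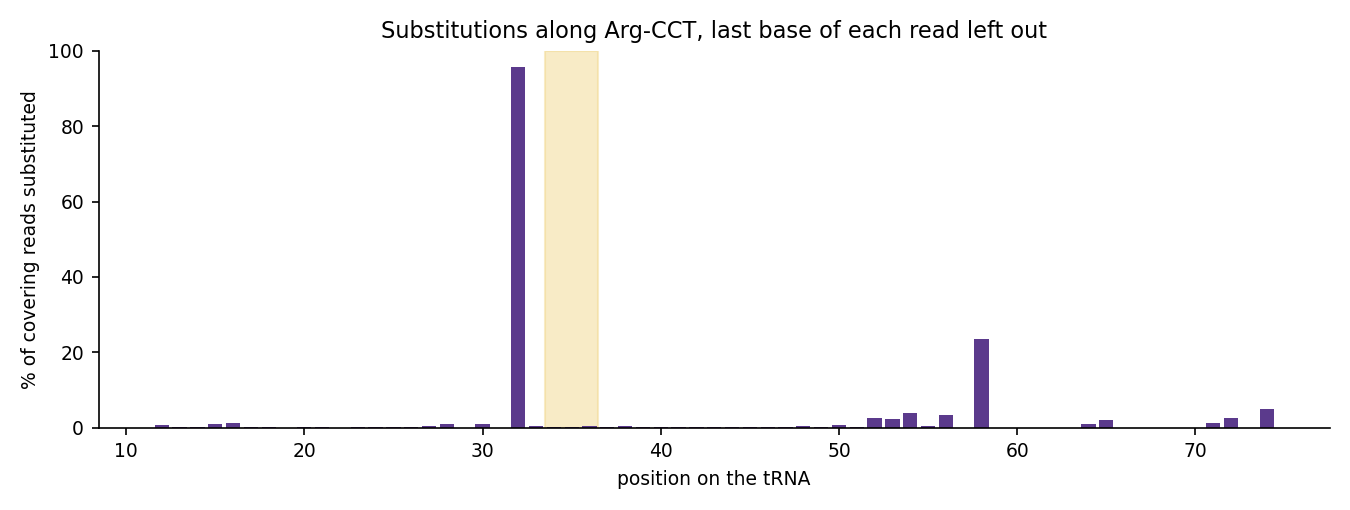
Share of covering Arg-CCT reads with a base other than the reference at each position, pooled over the 9 libraries, at positions covered by at least 50 reads, with each read's last base left out. The anticodon is shaded. Position 32 stands at 95.6% of 863 reads and position 58 at 23.5% of 81.

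By library, the substituted share at position 32 was 90.9, 90.0 and 88% in the SalB libraries, 96.2, 98.5 and 95.9% on high fat diet and 93.2, 97.1 and 96.3% on normal diet. The SalB values lay below all others, but rest on only 11, 30 and 25 covering reads, against 66 to 158 on high fat diet and 117 to 219 on normal diet. Over 3 groups the exact permutation p was 0.0214 and the adjusted p 0.114 over 20 measures, so the difference did not pass.

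Across conditions, the 4 tRNAs were first compared as sums. Of the 5 families tested (the 4 and Arg-CCG/Arg-CCT), 1 passed between SalB and high fat diet (limma-voom, Benjamini-Hochberg adjusted p under 0.05 over 103 families), where 31.1% of all families passed (26.2% higher and 4.85% lower with SalB). Between SalB and normal diet 2 passed, where 34% of all did (28.2% higher and 5.83% lower). None passed between high fat diet and normal diet (background 0.0% of 103 families), where 0 of the 5 and 6 of all (5.83%) had an unadjusted p under 0.05, and limma on log2 values also called 0 of the 5. On this scale the median family moved by 0.54 on the log2 scale with SalB against high fat diet and by 0.64 against normal diet, so changes are also given relative to it.

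Arg-TCT, the reader of AGA, had 2932, 2258 and 2541 RPM in the SalB libraries, against 1526, 1325 and 1995 RPM on high fat diet and 1458, 1473 and 1330.1 RPM on normal diet. The SalB libraries lay above all others. The log2 fold change was 0.67 (SE 0.22, adjusted p = 0.0420) against high fat diet and 0.85 (SE 0.22, adjusted p = 0.0160) against normal diet. Relative to the median family these are only 0.13 and 0.21 higher. When libraries were scaled by total counts instead, the first became -0.08 (adjusted p = 0.941) and the second 0.12 (adjusted p = 0.871), and as a plain share of tRNA reads Arg-TCT made up 0.201 ± 0.0939% with SalB, 0.194 ± 0.0365% on high fat diet and 0.167 ± 0.0147% on normal diet (exact permutation p = 0.729). The call against high fat diet was also lost without high fat diet replicates 1, 2 or 3 (adjusted p = 0.126, 0.156 and 0.0593) or normal diet replicates 1 or 2 (0.0716 and 0.0606), and that against normal diet without normal diet replicate 1 (0.0621). With scaling factors taken from the family table itself the values were 0.32 and 0.46 and neither passed (adjusted p = 0.347 and 0.181), nor with only the libraries compared (0.124 and 0.0775). The call against high fat diet was lost as well with no filter (0.112), with reads of 16 to 40 bases (0.0648), with no mismatch allowed (0.0534) and without the Leu-CAG-3-1 precursor reads (0.0623).

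Arg-TCT reads were also summed by origin, where internal again includes reads that end just short of the last base. Its internal fragments had 2287, 1850.4 and 1868 RPM in the SalB libraries, against 988, 749 and 1381 RPM on high fat diet and 1066, 963 and 831 RPM on normal diet. The SalB libraries lay above all others. They rose with SalB, with log2 fold changes of 0.96 (SE 0.28, adjusted p = 0.0272) and 1.08 (SE 0.27, adjusted p = 0.0122) against high fat diet and normal diet. These are 0.57 and 0.74 above the median of the 168 sums of 1 origin within 1 family. Of the 6 such sums of these tRNAs, 1 passed against high fat diet, where 28% of all sums did (20.2% higher and 7.74% lower), and 2 against normal diet, where 33.3% did (23.2% higher and 10.1% lower). Between the diets 0 passed, as did 0.0% of all sums. There 0 of the 6 and 18 of all (10.7%) had an unadjusted p under 0.05, and limma on log2 values called 0 of the 6. Its fragments ending in CCA, at 517 ± 231, 576 ± 37.5 and 461 ± 61 RPM for SalB, high fat diet and normal diet (mean ± SD, n = 3, as for all such pairs), did not pass in any comparison. Their log2 fold change against high fat diet was -0.30 (SE 0.39, adjusted p = 0.571). As a share of Arg-TCT reads they were 21.4, 11.1 and 26.5% in the SalB libraries, 35.3, 43.5 and 30.8% on high fat diet and 26.9, 34.6 and 36.1% on normal diet. The SalB values lay below all others, at p = 0.1 against each diet in a two-sided exact permutation test, the smallest that 3 against 3 allows. The exact permutation p over the 3 groups was 0.0286, with an adjusted p of 0.114 over 20 measures, which did not pass. With total counts the log2 fold changes of the internal sum were 0.21 and 0.33 and neither passed (adjusted p = 0.763 and 0.578), and without high fat diet replicates 1 or 2 the call against high fat diet was lost (adjusted p = 0.0958 and 0.123). With factors from the table of sums itself the values were 0.67 and 0.77 and neither passed (adjusted p = 0.142 and 0.0909), nor with only the libraries compared (0.0824 and 0.0508). The call against high fat diet was lost as well with no filter (0.0762) and with reads of 16 to 40 bases (0.0543). The internal sums of Arg-CCT, Arg-CCG and Arg-TCG did not pass in either comparison with SalB and had log2 fold changes against high fat diet of -0.33 (SE 0.18, adjusted p = 0.190), -0.23 (SE 0.33, adjusted p = 0.608) and 0.09 (SE 0.32, adjusted p = 0.831), and that of the shared reads passed only against normal diet, at -1.55 (SE 0.48, adjusted p = 0.0285). It was lost without SalB replicates 1 or 3 (adjusted p = 0.118 and 0.0659) or normal diet replicates 1 or 3 (0.0513 and 0.175), with only the libraries compared (0.0590) and with no mismatch allowed (0.902). Against high fat diet it passed with total counts (-2.11, adjusted p = 0.00453), with the table's own factors (-1.64, 0.0211) and without the Leu-CAG-3-1 precursor reads (-1.43, 0.0462).

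The most abundant Arg-TCT sequence, 59-76 with the CCA tail, had 52 reads in all, 4, 3 and 7 with SalB, 11, 3 and 6 on high fat diet and 5, 2 and 11 on normal diet. The next, Arg-TCT 15-30 (atggatagcgcattgg), had 35 reads. The fragment 60-76 followed with 29 reads from Arg-TCT-1-1 and 29 from Arg-TCT-5-1, whose sequences differ there. In Arg-TCG the most abundant were 60-76 with 35 reads, 40-55 with 9, 32-55 with 8 and 41-55 with 7. Arg-TCT-1-1 alone took 49.9% of the Arg-TCT reads and Arg-TCT-4-1, whose gene is known in mouse for its expression in the nervous system, 15 reads.

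Arg-CCT, the reader of AGG and the most abundant of the 4, did not pass as a sum. It stood at 13682, 13502 and 15643 RPM in the SalB libraries, against 19766, 15272 and 17989 RPM on high fat diet and 15367, 14958 and 16792 RPM on normal diet. The SalB libraries overlapped the others. The log2 fold change was -0.32 (SE 0.17, adjusted p = 0.159) against high fat diet and -0.16 (SE 0.17, adjusted p = 0.491) against normal diet, 0.87 and 0.80 below the median family. With scaling factors taken from the family table itself the first was -0.70 and passed (adjusted p = 0.0407), as it did with total counts (-1.11, adjusted p = 0.0394). As a share of tRNA reads Arg-CCT made up 1.19, 0.551 and 1.56% in the SalB libraries, 2.38, 1.88 and 2.11% on high fat diet and 1.91, 1.70 and 1.92% on normal diet (exact permutation p = 0.0107, adjusted p = 0.107). Arg-CCG stood at 4322 ± 1598, 4933 ± 1147 and 4318 ± 1030.2 RPM with SalB, on high fat diet and on normal diet, and Arg-TCG at 378 ± 39.6, 399 ± 102 and 408 ± 73.6 RPM. Neither passed in any comparison, with adjusted p from 0.564 to 0.944. Of the Arg-CCG reads, 98.7% fitted only the reference 3-1.

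The reads shared by Arg-CCG and Arg-CCT fell against normal diet. They stood at 1457, 5881 and 3064 RPM in the SalB libraries, against 9232, 6397 and 7173 RPM on high fat diet and 7665, 5637 and 12829.6 RPM on normal diet. SalB replicate 2 lay within the range of normal diet, while all SalB libraries lay below high fat diet. The log2 fold change was -1.53 (SE 0.48, adjusted p = 0.0397) against normal diet, which passed, and -1.34 (SE 0.49, adjusted p = 0.0592) against high fat diet, which did not. These are 2.17 and 1.88 below the median family. The call against normal diet was lost without SalB replicates 1 or 3 (adjusted p = 0.130 and 0.0774), without high fat diet replicates 1, 2 or 3 (0.0583, 0.0612 and 0.0620) and without normal diet replicates 1 or 3 (0.0631 and 0.184), and without SalB replicate 1 the value was -0.90. It was also lost with only the libraries compared (0.0839). The difference from high fat diet passed without SalB replicate 2 (-1.72, adjusted p = 0.00366), with total counts (-2.09, 0.00480) and with factors from the family table itself (-1.70, 0.0263). Counting only reads with no mismatch, the difference from normal diet was -0.22 (adjusted p = 0.803).

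**Figure D3:**
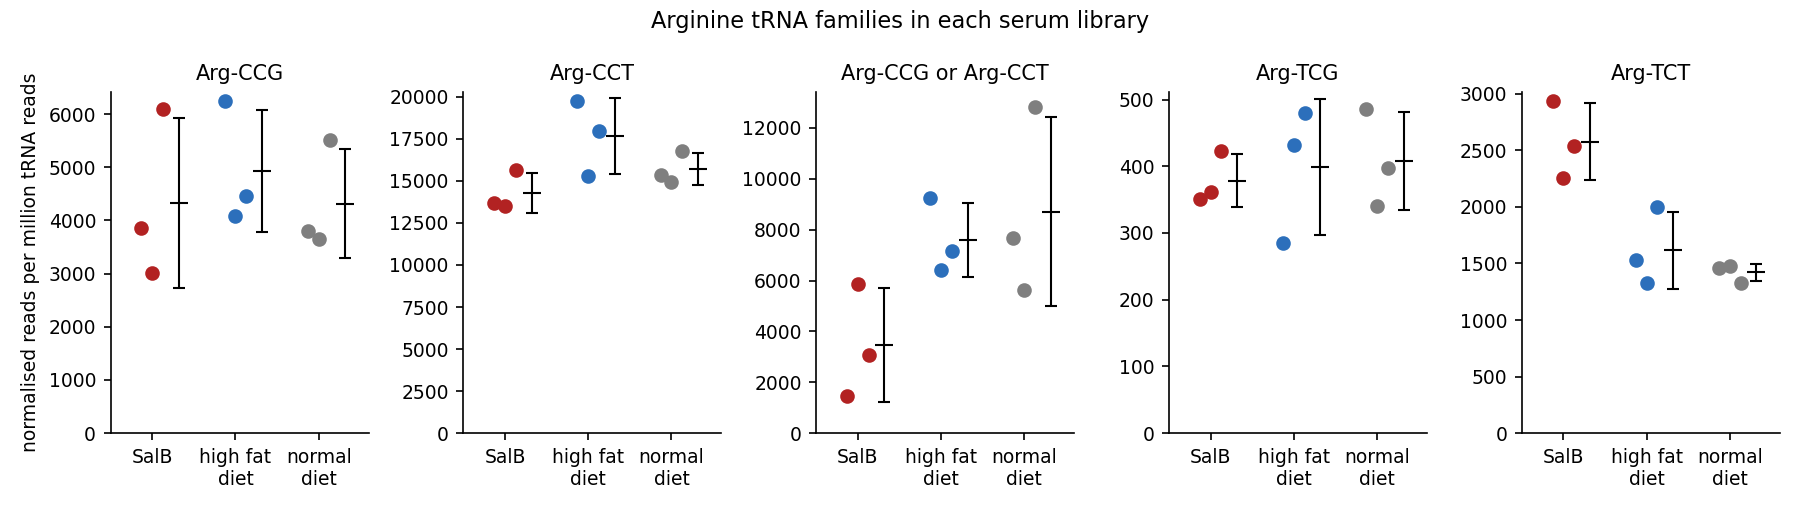
Level of each family in each library, in normalised RPM, with points for libraries and black marks for the mean and SD (n = 3), in SalB, high fat diet and normal diet. The Arg-TCT points with SalB (2258 to 2932) lie above all others, and those of Arg-CCG or Arg-CCT with SalB (1457 to 5881) lie below high fat diet.

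Single fragments were compared next. Of the 29 tested, 8 fell and 0 rose with SalB against high fat diet, or 27.6%, where 34.2% of all 733 fragments passed. Against normal diet, 6 fell and 1 rose, or 24.1%, where 39% of all passed. These shares are not above the background. Some of the members called met the abundance filter only through libraries without SalB, as given below. Of all 733 fragments, 17.6% rose and 16.6% fell against high fat diet, and 20.5% rose and 18.6% fell against normal diet. Whether the members' split by direction differs from that was not tested. Of the 15 members with no substitution, 3 fell against high fat diet, and 2 fell and 1 rose against normal diet. Of the 11 substituted at the last base, 4 and 3 fell in these comparisons, and of the 3 substituted elsewhere, 1 fell in each. The median log2 fold change of the 29 was -0.69 against high fat diet and -0.36 against normal diet, beside -0.15 and -0.10 over all 733. With total counts the median of all moved to -1.0 and -0.98, and 53 of all rose and 272 fell against high fat diet, and 72 rose and 276 fell against normal diet. No member passed between high fat diet and normal diet (0.0% of 733), where 4 members and 87 of all had an unadjusted p under 0.05, and limma on log2 values called 0 members. Groups did not overlap for 10 of the 29 against high fat diet (50.1% of all 733), 10 against normal diet (50.3%) and 7 between the diets (24.1%). The comparisons share their libraries and are not independent.

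The greatest fall among the 29 was in Arg-CCT 27-54 C32T, the long fragment that crosses position 32 with a thymine there. It had 73.8, 78.4 and 274 RPM in the SalB libraries, against 1167, 979.7 and 901 RPM on high fat diet and 1066, 1841 and 988 RPM on normal diet. Every SalB library lay below every other, and the diets overlapped. The log2 fold change was -3.16 (SE 0.53, adjusted p = 0.00175) against high fat diet and -3.44 (SE 0.53, adjusted p = 0.000752) against normal diet, and -0.28 between the diets (adjusted p = 0.788). It rests on 4, 5 and 11 reads with SalB, 78, 34 and 47 on high fat diet and 57, 65 and 107 on normal diet, and both calls held in every alternative that kept it.

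Other Arg-CCT reads of this kind are given as shares of the Arg-CCT reads. Reads of Arg-CCT that started at 27 or 28 made up 0.943, 2.44 and 2.39% in the SalB libraries, 9.61, 10.8 and 8.53% on high fat diet and 12, 21.8 and 9.52% on normal diet. Reads of 28 bases or more made up 2.39 ± 1.15% with SalB, 9.63 ± 0.870% on high fat diet and 14.3 ± 6.02% on normal diet, with every SalB library below every other (exact permutation p = 0.00714 over the 3 groups, adjusted p = 0.107 over 20 measures, which did not pass). Reads with a mismatch before the last base made up 12.3 ± 3.18% with SalB, 24.4 ± 2.02% on high fat diet and 27.2 ± 8.14% on normal diet (exact adjusted p = 0.114), which did not pass. Restricted to reads of 16 to 40 bases, the shares of long reads and of Arg-CCT among tRNA reads passed (exact adjusted p = 0.0357 each).

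Arg-CCT fragments that start inside the anticodon are shorter and make up most of its reads. Arg-CCT 36-54, which starts at the anticodon's last base, had 461, 204 and 423 RPM in the SalB libraries, against 1137, 836 and 1227 RPM on high fat diet and 991, 1048 and 1228 RPM on normal diet. No SalB library overlapped the others. It fell with SalB, with log2 fold changes of -1.64 (SE 0.37, adjusted p = 0.00771) and -1.67 (SE 0.37, adjusted p = 0.00501), and both calls held in every alternative run. Arg-CCT 35-54, which is 1 base longer at the 5′ end, had 3319, 1756 and 3786 RPM in the SalB libraries, against 4145, 3804 and 4641 RPM on high fat diet and 4076, 3399 and 3787 RPM on normal diet. All SalB libraries lay below high fat diet, and replicate 3 lay within the normal diet range. It did not pass, at -0.59 (SE 0.32, adjusted p = 0.168) and -0.43 (SE 0.32, adjusted p = 0.294), and whether it changed less than 36-54 was not tested. With total counts it passed against high fat diet (-1.36, adjusted p = 0.0437).

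The variant T54G of Arg-CCT 35-54, substituted at the last base, had 221, 141 and 249 RPM in the SalB libraries, against 599, 432 and 326 RPM on high fat diet and 262, 170.0 and 185 RPM on normal diet. All SalB libraries lay below high fat diet and overlapped normal diet. It fell against high fat diet, with a log2 fold change of -1.18 (SE 0.40, adjusted p = 0.0410). That call was lost without SalB replicates 1, 2 or 3 (adjusted p = 0.0991, 0.200 and 0.0680), high fat diet replicates 1 or 2 (0.139 and 0.0769) or normal diet replicate 3 (0.0649), and without SalB replicate 2 the value was -0.78. It was also lost with RLE size factors (0.0550) and no filter (0.405).

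Fragments from the D arm of Arg-CCT can be assigned to references 1-1 and 2-1 or to 3-1 and 4-1. Arg-CCT 16-31, which fits only references 3-1 and 4-1, had 129, 125 and 174 RPM in the SalB libraries, against 539, 375 and 556 RPM on high fat diet and 262, 368 and 342 RPM on normal diet. The SalB libraries lay below all others, and the high fat diet libraries above those on normal diet. It fell with SalB, with log2 fold changes of -1.77 (SE 0.41, adjusted p = 0.00811) and -1.16 (SE 0.41, adjusted p = 0.0440) against high fat diet and normal diet. The fragment had 7, 8 and 7 reads with SalB, 36, 13 and 29 on high fat diet and 14, 13 and 37 on normal diet. It met the abundance filter only through libraries without SalB, so that a fall with SalB was favoured in advance. The call against high fat diet held in every alternative run, while that against normal diet was lost without SalB replicates 1, 2 or 3 (adjusted p = 0.128, 0.161 and 0.0970), high fat diet replicates 1 or 3 (0.0534 and 0.0619) and normal diet replicates 2 or 3 (0.0832 and 0.107). It was also lost with RLE size factors (0.0530), no filter (0.477), only the libraries compared (0.0556), reads of 16 to 40 bases (0.0532) and no mismatch allowed (0.0713).

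Arg-CCT 12-29, which fits only 1-1 and 2-1, had 627, 894 and 224 RPM in the SalB libraries, against 179.6, 28.8 and 249 RPM on high fat diet and 74.8, 56.7 and 64.7 RPM on normal diet. SalB replicate 3 lay within the high fat diet range, and all SalB libraries lay above normal diet. It was the only tested member that rose, with a log2 fold change of 2.85 (SE 0.77, adjusted p = 0.0134) against normal diet. It did not pass against high fat diet, at 1.80 (SE 0.70, adjusted p = 0.0656), although it did with no filter (1.96, adjusted p = 0.0109) and with limma on log2 values (1.90, adjusted p = 0.0387). The rise was lost without normal diet replicate 3 (adjusted p = 0.0649) and was 3.51 without SalB replicate 3, where the difference from high fat diet passed (2.46, adjusted p = 0.0109). It rests on 34, 57 and 9 reads with SalB, 12, 1 and 13 on high fat diet and 4, 2 and 7 on normal diet. The fragment met the abundance filter only through SalB replicates 1 and 2 and high fat diet replicate 3. No normal diet library reached it, so that a rise against normal diet was favoured in advance.

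Over all starts at 12 to 16, reads that fit only 1-1 and 2-1 made up 56.2, 67.8 and 48.2% in the SalB libraries, 35, 14.5 and 22.8% on high fat diet and 24.1, 34 and 24.1% on normal diet of those that can be assigned to either pair of references. The SalB libraries lay above all others. This split was looked at after the values were seen and is given without a test. All starts at 12 to 16 together made up 27 ± 4.54% with SalB, 13.9 ± 3.03% on high fat diet and 9.73 ± 1.07% on normal diet of Arg-CCT reads.

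**Figure D4:**
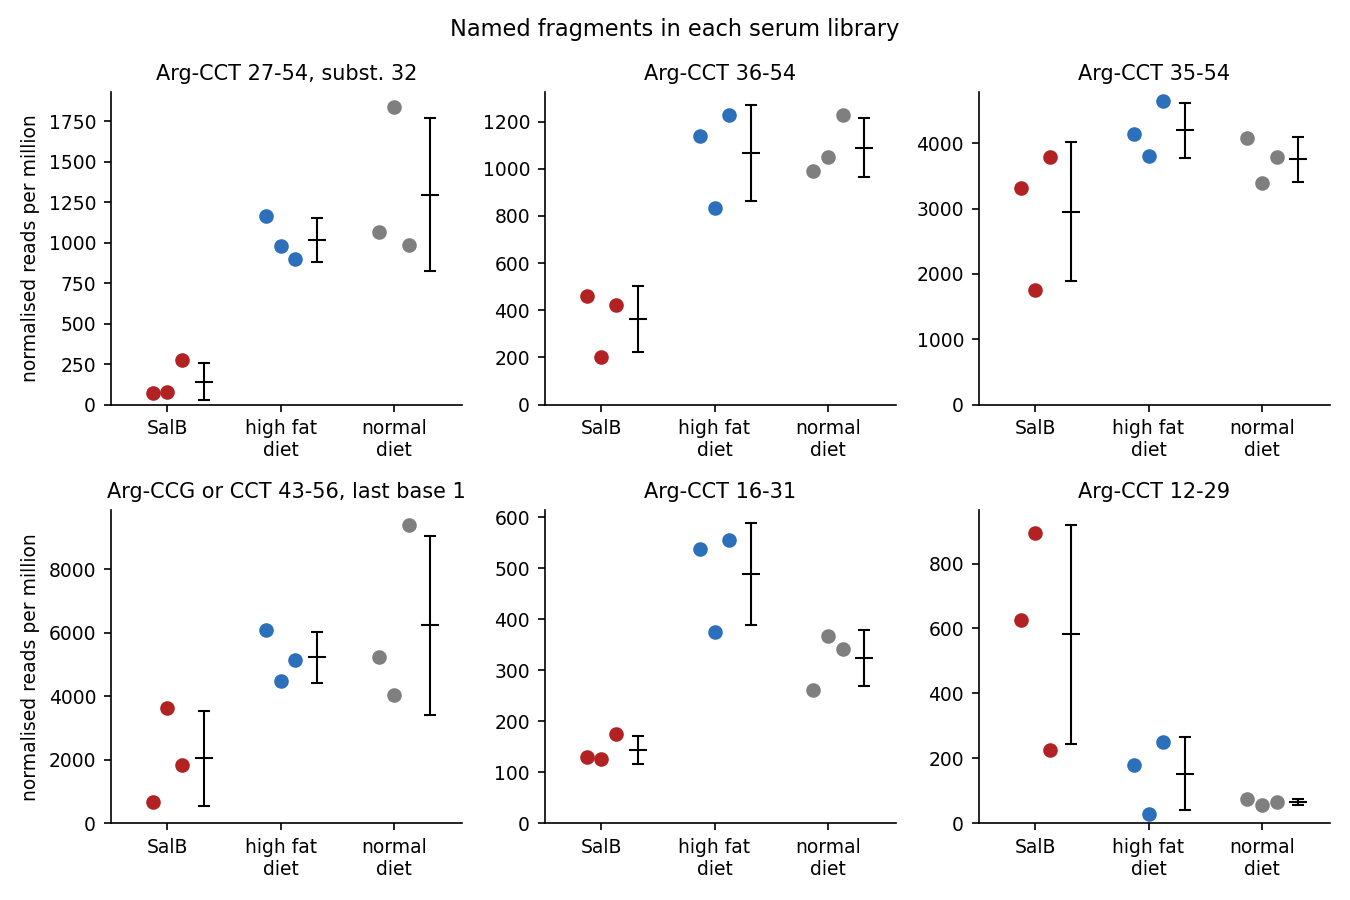
Levels of 6 fragments in each library, in normalised RPM, with points for libraries and black marks for the mean and SD (n = 3), in SalB, high fat diet and normal diet. "Subst. 32" marks the C32T fragment and "last base 1" the C56T variant. Arg-CCT 27-54 averages 142 with SalB, 1016 on high fat diet and 1298 on normal diet, while Arg-CCT 12-29 averages 582, 153 and 65.4.

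In Arg-CCG, the D-arm fragment 15-28 had 203, 392 and 722 RPM in the SalB libraries, against 1990.1, 1009 and 997 RPM on high fat diet and 692, 425 and 397 RPM on normal diet. The SalB libraries overlapped normal diet and lay below high fat diet, and the diets did not overlap. It fell with SalB against high fat diet, with a log2 fold change of -1.73 (SE 0.47, adjusted p = 0.0160), a call lost without SalB replicate 1 (adjusted p = 0.0900) or high fat diet replicate 1 (0.0704). Between high fat diet and normal diet its log2 fold change was 1.37 (SE 0.46, adjusted p = 0.308). It was among the 3 members with the smallest p there, with Arg-CCT 15-28 at 1.86 (SE 0.63, adjusted p = 0.308) and Arg-CCT 35-54 T54G at 1.10 (SE 0.39, adjusted p = 0.344), and none of the 3 passed. The most abundant Arg-CCG sequence, 42-55 with 567 reads, stood at 992 ± 729 RPM with SalB, 921 ± 38 RPM on high fat diet and 1289 ± 428 RPM on normal diet and did not pass in any comparison. Neither did its variant T55A (277 ± 205, 286 ± 94.9 and 326 ± 207 RPM for SalB, high fat diet and normal diet), nor Arg-CCG 41-54 (457 ± 135, 263 ± 124 and 242 ± 72 RPM in the same order of groups). Arg-CCT 42-55, which starts at the same place in Arg-CCT, had 498, 1443 and 1046 RPM in the SalB libraries, against 943, 663 and 537 RPM on high fat diet and 617, 482 and 1598 RPM on normal diet, with all groups overlapping and no call.

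The shared stretch from 43 to 56, at the shortest read length in the files, was read mostly with a last base other than the reference's. Of its 3555 reads, 91.6% ended in a base other than the reference C56, with T in 73.5%, A in 16.1%, G in 2.03% and the reference C in 8.41%. Among other fragments of these tRNAs, a substituted last base was read in 19.6% of Arg-CCT 35-54, 19.3% of Arg-CCT 36-54, 32.5% of Arg-CCG 42-55 and 32.8% of Arg-CCT 42-55. Over all reads of a tRNA, a substituted last base averaged 26.1% in Arg-CCG (higher in 9 of 9 libraries), 22.3% in Arg-CCT (higher in 8 of 9) and 17.8% in Arg-TCT (higher in 3 of 9), against 18.3% in the other nuclear tRNAs. The exact adjusted p were 0.00639, 0.0216 and 0.684. Restricted to reads of 16 to 40 bases, the Arg-CCT difference was 2.50% and did not pass (exact adjusted p = 0.0747). The source of the substituted base was not tested, nor was whether such short reads come from these tRNAs at all.

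Each of the 3 substituted forms fell with SalB against high fat diet, C56G on few reads. C56T had 664, 3638 and 1818 RPM in the SalB libraries, against 6075, 4466 and 5139.7 RPM on high fat diet and 5235, 4051 and 9412 RPM on normal diet. All SalB libraries lay below all others. The log2 fold change was -1.66 (SE 0.53, adjusted p = 0.0313) against high fat diet and -1.87 (SE 0.52, adjusted p = 0.0156) against normal diet. The first call was lost without SalB replicates 1 or 3 (adjusted p = 0.146 and 0.0664) or high fat diet replicates 1, 2 or 3 (0.101, 0.0541 and 0.0750), and the second without SalB replicate 1 (0.0848) or normal diet replicate 3 (0.0757). Without SalB replicate 1 the values were -0.91 and -1.09.

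C56A had 258, 376 and 573 RPM in the SalB libraries, against 1541, 1009 and 959 RPM on high fat diet and 1383, 1105 and 1939.7 RPM on normal diet. The SalB libraries again lay below all others. It fell, with log2 fold changes of -1.59 (SE 0.39, adjusted p = 0.0101) and -1.93 (SE 0.38, adjusted p = 0.00291) against high fat diet and normal diet, and both calls held in every alternative run that kept it. C56G had 72 reads in all, 2, 2 and 3 with SalB, 19, 3 and 11 on high fat diet and 6, 4 and 22 on normal diet. It met the abundance filter only through libraries without SalB, so that a fall with SalB was favoured in advance. Its log2 fold change against high fat diet was -1.99 (SE 0.72, adjusted p = 0.0497). That call was lost without SalB replicates 1, 2 or 3 (adjusted p = 0.111, 0.130 and 0.0722) or normal diet replicates 1 or 2 (0.0619 and 0.0565). It was also lost with RLE size factors (0.0551) and with no filter (0.109). Against normal diet it did not pass, at -1.62 (SE 0.72, adjusted p = 0.0892), except with total counts (-2.54, adjusted p = 0.0159). The unsubstituted form stood at 423 ± 395 RPM with SalB, 528 ± 128 RPM on high fat diet and 551 ± 424 RPM on normal diet and did not pass, at -0.63 (SE 0.70, adjusted p = 0.491) and -0.48 (SE 0.70, adjusted p = 0.597). The difference between the forms was not tested. A form that only Arg-CCG gives, 42-56 C56T, fell against normal diet, with a log2 fold change of -1.36 (SE 0.50, adjusted p = 0.0491), a call lost without any 1 of the 9 libraries (adjusted p from 0.0551 to 0.286), and also with RLE size factors (0.0581), no filter (0.312) and only the libraries compared (0.0632). Like C56G, this form met the abundance filter only through libraries without SalB, with 10, 4 and 5 reads in the SalB libraries. A fall with SalB was thus favoured in advance. Against high fat diet it passed only with total counts (-2.34, adjusted p = 0.0100). Without SalB replicate 2 its value was -0.71.

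**Figure D5:**
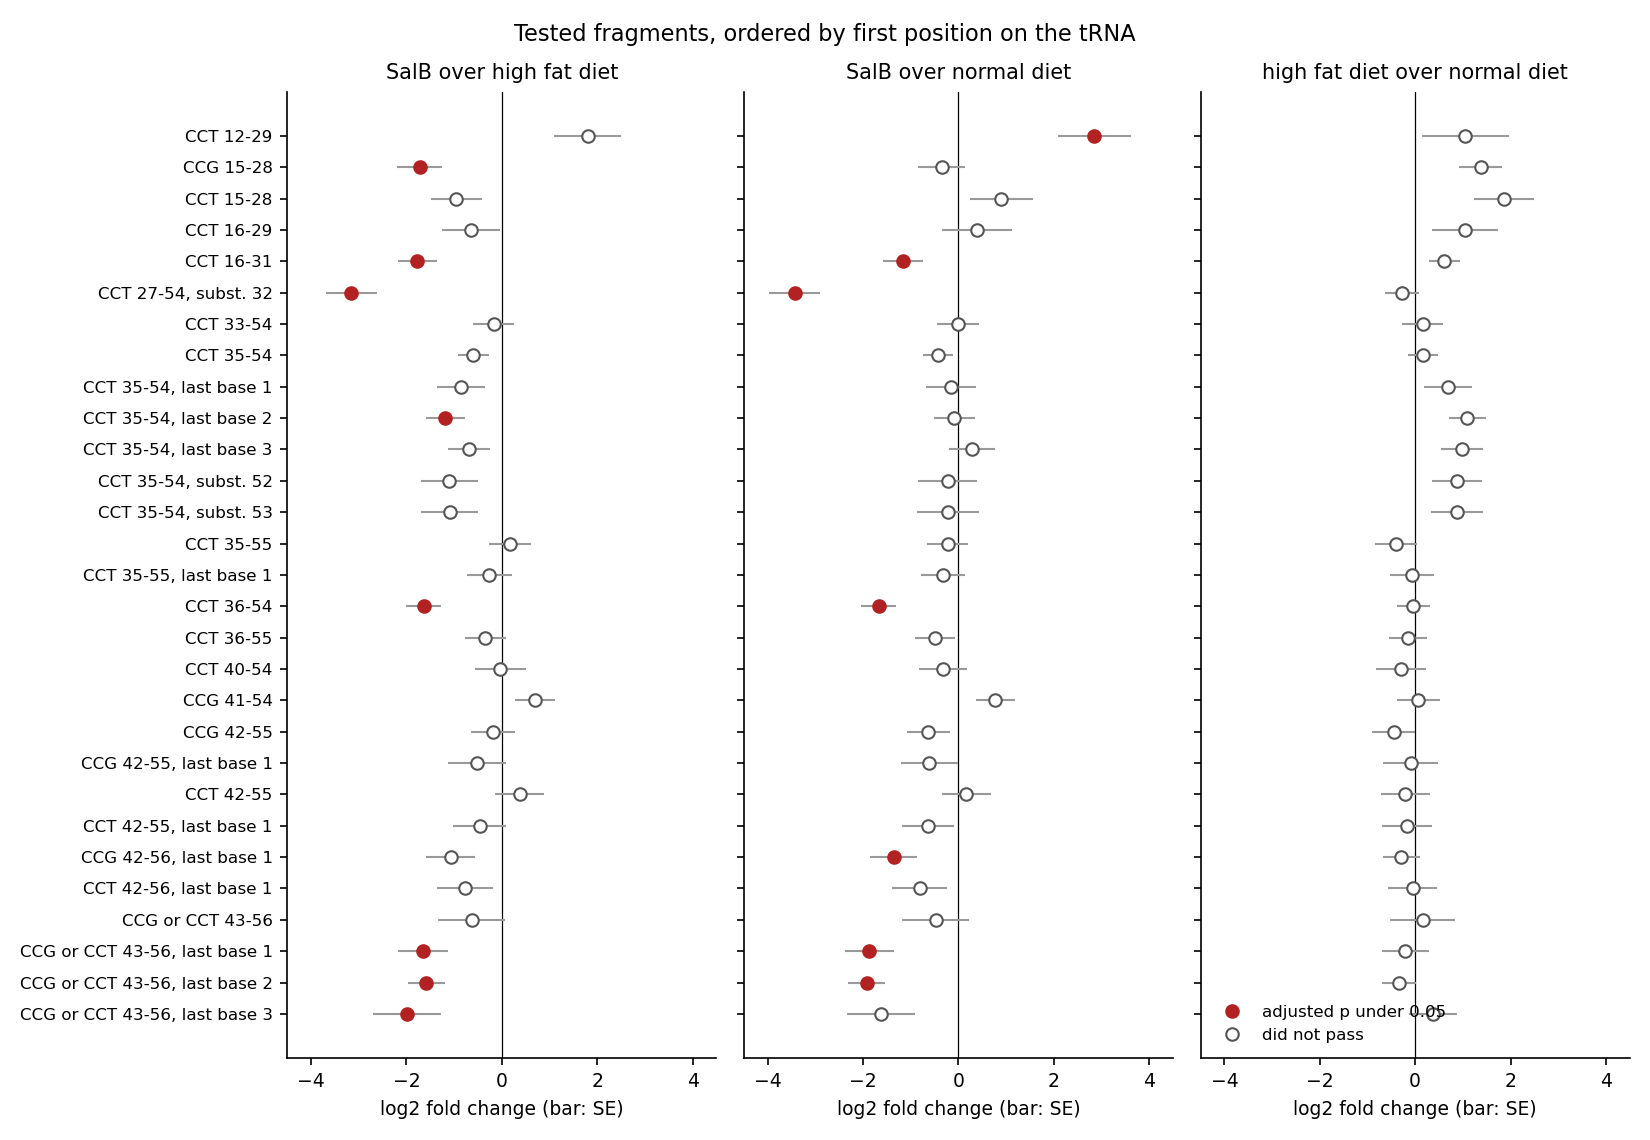
Log2 fold change of the 29 tested fragments, from the 5′ to the 3′ side of the tRNA, in SalB over high fat diet, SalB over normal diet and high fat diet over normal diet, with bars for the SE. Filled points passed (adjusted p under 0.05): 8 in the left panel, 7 in the middle and 0 in the right. "Last base" variants are numbered by abundance, 1 to 3 standing for T, A and G in 43-56 and for C, G and A in 35-54, and "subst." gives the position of a substitution before the last base.

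Other tRNAs were set beside these. Arg-ACG, the remaining nuclear arginine tRNA, stood at 7272 ± 2464 RPM with SalB, 10523 ± 923 RPM on high fat diet and 10389.9 ± 1550.4 RPM on normal diet and did not pass. Its log2 fold change was -0.56 (SE 0.26, adjusted p = 0.109) against high fat diet and -0.52 (SE 0.25, adjusted p = 0.129) against normal diet. Mitochondrial Arg-TCG, with 71 reads, was too low to test. Of the 7 Thr and Ser families known to carry 3-methylcytidine, 6 were tested. Thr-AGT fell in both comparisons with SalB, at 4379 ± 1668 RPM with SalB, 8014 ± 518 RPM on high fat diet and 7803 ± 1052 RPM on normal diet. Its log2 fold change was -0.94 (SE 0.29, adjusted p = 0.0349) against high fat diet and -0.88 (SE 0.28, adjusted p = 0.0401) against normal diet. The other 5 did not pass in any comparison, and the medians of the 6 were 0.53 against high fat diet and 0.30 against normal diet, beside 0.54 and 0.64 over all families. Precursors of the 4 tRNAs gave 15 reads for Arg-CCG, 62 for Arg-CCT, 31 for Arg-TCG and 96 for Arg-TCT, too few to test.

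Across the 9 libraries, the family whose log2 level was most like that of Arg-CCT was Ala-AGC (Pearson r = 0.82), followed by Arg-CCG (0.75) and Val-CAC (0.60). Arg-CCG was most like Arg-CCT (0.75), Val-CAC (0.48) and Ala-AGC (0.47). The shared Arg-CCG/Arg-CCT reads were most like Gln-CTG (0.93), Tyr-GTA (0.93) and Gln-CTG/Gln-TTG (0.78). Arg-TCT was most like mitochondrial His-GTG (0.91), mitochondrial Gly-TCC (0.89) and Lys-CTT/Lys-TTT (0.88). Arg-TCG was only weakly like any, with Pro-AGG/Pro-CGG/Pro-TGG (0.44), Glu-CTC/Glu-TTC (0.43) and mitochondrial Leu-TAA (0.40). These correlations are descriptions over the same 9 libraries and their shared scaling, out of 102 families each, and the split between SalB and the other libraries is part of them.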

How the data were processed

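Total RNA was isolated with TRIzol, made into libraries with a kit for tRNA fragments and sequenced on an Illumina NextSeq, per the labels' protocols. The submitters' processing notes name FastQC, cutadapt, Bowtie, edgeR and mm10. Alignment settings were not given in the sources used here. The authors deposited 1 alignment table per library, in which the measure is a position on a tRNA reference and the read count of each distinct sequence stands in its name. Reads held 14 to 40 bases and at most 1 mismatch.

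Each sequence was counted once, with its start, end and length (Python 3.11.15). Counts were fitted with limma-voom (limma 3.58.1, R 4.3.3) over all 9 libraries with trimmed-mean scaling, for sequences, families and sums of 1 origin (5′, 3′, internal) within a family. Features needed 10 reads at the median depth in at least 3 libraries and 15 in all. p-values were two-sided and adjusted by Benjamini-Hochberg over each whole table, with a threshold of 0.05. No column of counts exists, so that the quasi-likelihood count test was not used. The scripts were tested on simulated data with the same spread in all groups. In the real data, the chi-square per degree of freedom between libraries of a group was 9.27 to 54.0 with SalB. It was 2.76 to 3.19 on high fat diet and 4.41 to 9.15 on normal diet. These values also grow with read depth, and the effect of unequal spread on the calls was not tested. Shares were compared by exact permutation over 280 partitions of the libraries, and against other nuclear tRNAs by exact sign flips.

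The text names all families, tested origin sums, the 4 most abundant sequences of each of the 4 tRNAs, each called sequence and, where a comparison called none, the 3 with the smallest p. The members and lists were chosen with earlier results of these data known. Alternatives were other scalings, filters, lengths, mismatches, the replicate number as a block, and each library left out. Scaling from each table itself was added after seeing the data.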

Additional observations from a re-analysis of the deposited data

How the results depend on the processing

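With total counts, 16 fragments passed against high fat diet (8 as reported), 2 families (1) and, against normal diet, 1 family (2) and 1 origin sum (2), and Arg-TCT against high fat diet reversed, with a log2 fold change of -0.0770. Among all 733 fragments, 53 rose and 272 fell against high fat diet with total counts, where 129 rose and 122 fell as reported. With no filter, 16 and 23 of 1501 fragments passed against high fat diet and normal diet (8 and 7), with 0 families and 0 origin sums against high fat diet (1 each). With only the libraries compared, 0 families and 0 origin sums passed in either comparison with SalB. With reads of 16 to 40 bases, 4 and 3 fragments passed, with 0 and 1 families and 0 and 1 origin sums, and 2 of the composition measures passed (0 as reported). With no mismatch allowed, 3 and 2 fragments passed, with 0 and 1 families, and 1 origin sum against normal diet. Without the Leu-CAG-3-1 precursor reads, 0 families and 2 origin sums passed against high fat diet. With scaling from each table itself, 2 and 1 families passed, and 1 origin sum against normal diet. Leaving out 1 library at a time gave 4 to 7 and 3 to 6 fragments, 0 to 2 and 0 to 2 families, 0 to 2 and 1 to 2 origin sums for the same 2 comparisons, and 13 to 15 differences from other nuclear tRNAs (14 as reported). Between high fat diet and normal diet 0 members passed in every alternative run. Shares of all features that passed under the other settings are not given here, so these counts do not set the members apart from the rest.

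With the replicate number as a block, 0 families passed against high fat diet and 1 against normal diet. The calls lost were Arg-TCT against high fat diet (adjusted p = 0.0698) and, against normal diet, Arg-CCG/Arg-CCT (0.0667), Arg-CCT 16-31 (0.0664) and Arg-CCG 42-56 C56T (0.0675). Deviations from the group mean correlated between -0.296 and 0.160 for libraries with the same number. For libraries with different numbers they correlated between -0.265 and 0.262. With 3 libraries in each group, such correlations cannot decide whether the numbers pair the libraries. The causes of these changes were not tested.

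Fragments with few reads set the limits: libraries held 922 to 3995 arginine reads, and a fragment passed the filter only near 10 reads in 3 libraries. Fragments of Arg-TCT and Arg-TCG stayed below that. No molecular identifiers are named for these reads, so intervals and limits cover counting error only.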

Other observations

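Precursor reads of the same tRNAs stood mostly in the SalB libraries, and are given as values only, since none of the 4 passed the filter. Arg-CCT precursors had 22, 23 and 9 reads in the SalB libraries, 2, 1 and 2 on high fat diet and 0, 1 and 2 on normal diet, while mature Arg-CCT did not pass in any comparison. This corresponds to 330.2 ± 94.5, 32.4 ± 5.22 and 15.6 ± 14.4 RPM for SalB, high fat diet and normal diet (mean ± SD, n = 3). Arg-TCG precursors had 9, 9 and 5 reads in the SalB libraries, 1, 2 and 1 on high fat diet and 1, 1 and 2 on normal diet. Arg-TCT precursors had 12, 49 and 5 reads with SalB, 6, 2 and 1 on high fat diet and 4, 3 and 14 on normal diet, where the raw reads overlap between the groups. Arg-CCG precursors had 2, 8 and 1 reads with SalB, 0, 2 and 2 on high fat diet and 0 in each normal diet library. SalB replicate 2, which holds the most reads of all, is also the library in which the Leu-CAG-3-1 precursor took 42% of the reads.

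Among all Arg-CCT reads that can be assigned to a pair of references, 589 fitted only 1-1 and 2-1 and 1430 only 3-1 and 4-1. The first made up 54.7, 62.1 and 41.9% of these in the SalB libraries, 22.9, 8.04 and 16.4% on high fat diet and 13.6, 12.8 and 12.9% on normal diet. The SalB libraries lay above all others. Of the 572 reads that start at 27, as the C32T fragment that fell does, 4 fitted only 1-1 and 2-1 and 568 only 3-1 and 4-1. The 122 reads that start at 28 were not assigned to a pair. The split was chosen after the values were seen and was not tested.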
